A study of Lactuca sativa with 12 samples.

Results

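The AP2/ERF genes are plant transcription factors that carry an AP2 DNA-binding domain, and 40 of the 2264 genes listed in the deposited lettuce tables belong to them. They were chosen by their RefSeq names (ethylene-responsive transcription factor, dehydration-responsive element-binding or AP2) or by an ERF or AP2 entry in the transcription factor family column. The names gave 37 genes and the family column gave all 40, and the 3 found by family alone were PTI5 (LOC111884301) and the pair of ethylene-response factor C3 genes (LOC111902493 and LOC111908515). All 40 members carried the Pfam AP2 domain in the deposited annotation and 0 of the other listed genes did. The family column that gave all 40 belongs to the same annotation, so this match is no independent check of the label. By name, 28 were ERF genes, 6 were DREB genes, 3 were AP2-like genes and 3 were others, and 0 were RAV genes.

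Leaves of a red oak-leaf lettuce (Lactuca sativa) in hydroponic culture were sequenced as 12 poly(A) RNA libraries in 4 groups of 3. CdSeNP plants received cadmium at 10 mg/L together with biosynthesised selenium nanoparticles at 3 mg/L, SeNP plants received the nanoparticles at 3 mg/L, Cd plants received cadmium at 10 mg/L, and CK plants received neither. In the labels that cadmium dose is stated as the metal in one place and as its hydrated chloride salt in another, which leaves the ion concentration unsettled. Treatment began when seedlings were 4 weeks old, and whole leaves were taken at the 6-leaf stage, at 1.5 months. Replicates are described as biological in the series text, 1 batch label covers all libraries, and the labels do not say whether a library held 1 plant or several. RNA of whole leaves cannot tell fewer cells of a type apart from less RNA per cell.

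AP2/ERF proteins bind short DNA elements near their target genes. ERF proteins are known for binding the GCC box of defence genes, often downstream of ethylene, whereas DREB proteins bind the dehydration-responsive element of genes induced by cold, drought and salt. AP2-like proteins of the AINTEGUMENTA type act in growing organs, where they keep cells dividing. Many ERF and DREB genes of Arabidopsis respond within minutes to wounding, touch, cold or oxidative stress, and their transcripts decay fast.

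Library depth recovered from the files ran from 23.3 to 31.4 M reads. Each of the 6 deposited tables compares a pair of groups and lists only the genes that the authors called with DESeq2 (adjusted p below 0.05 with a change of more than 1 on the log2 scale, in either direction). Absence from a table means no call in that comparison, and the level of a gene in a group is known only where some table with that group lists it. All 40 members are therefore genes called in at least 1 comparison, with levels known in all 12 libraries for 16 of them. Levels are FPKM (fragments scaled by transcript length and library size), so they are on a per-length scale. One control library, CK 2, stood apart: the chi-square per degree of freedom against its replicates was 46.1 and 41.7 over the listed genes, against 8.68 between CK 1 and CK 3 and 5.03 to 14.14 between replicates of the treated groups. Genes of leaf mesophyll (light-harvesting, photosystem and Rubisco genes) were abundant: the 24 called in CdSeNP against CK summed to 11834 to 12326 FPKM in CdSeNP and 26673 to 28207 FPKM in CK, and the 26 called in SeNP against Cd summed to 33567 to 34143 FPKM in SeNP and 14283 to 15701 FPKM in Cd. The search for root genes matched 0 listed genes, which says nothing of their level, since uncalled genes are not in the tables.

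**Figure D1:**
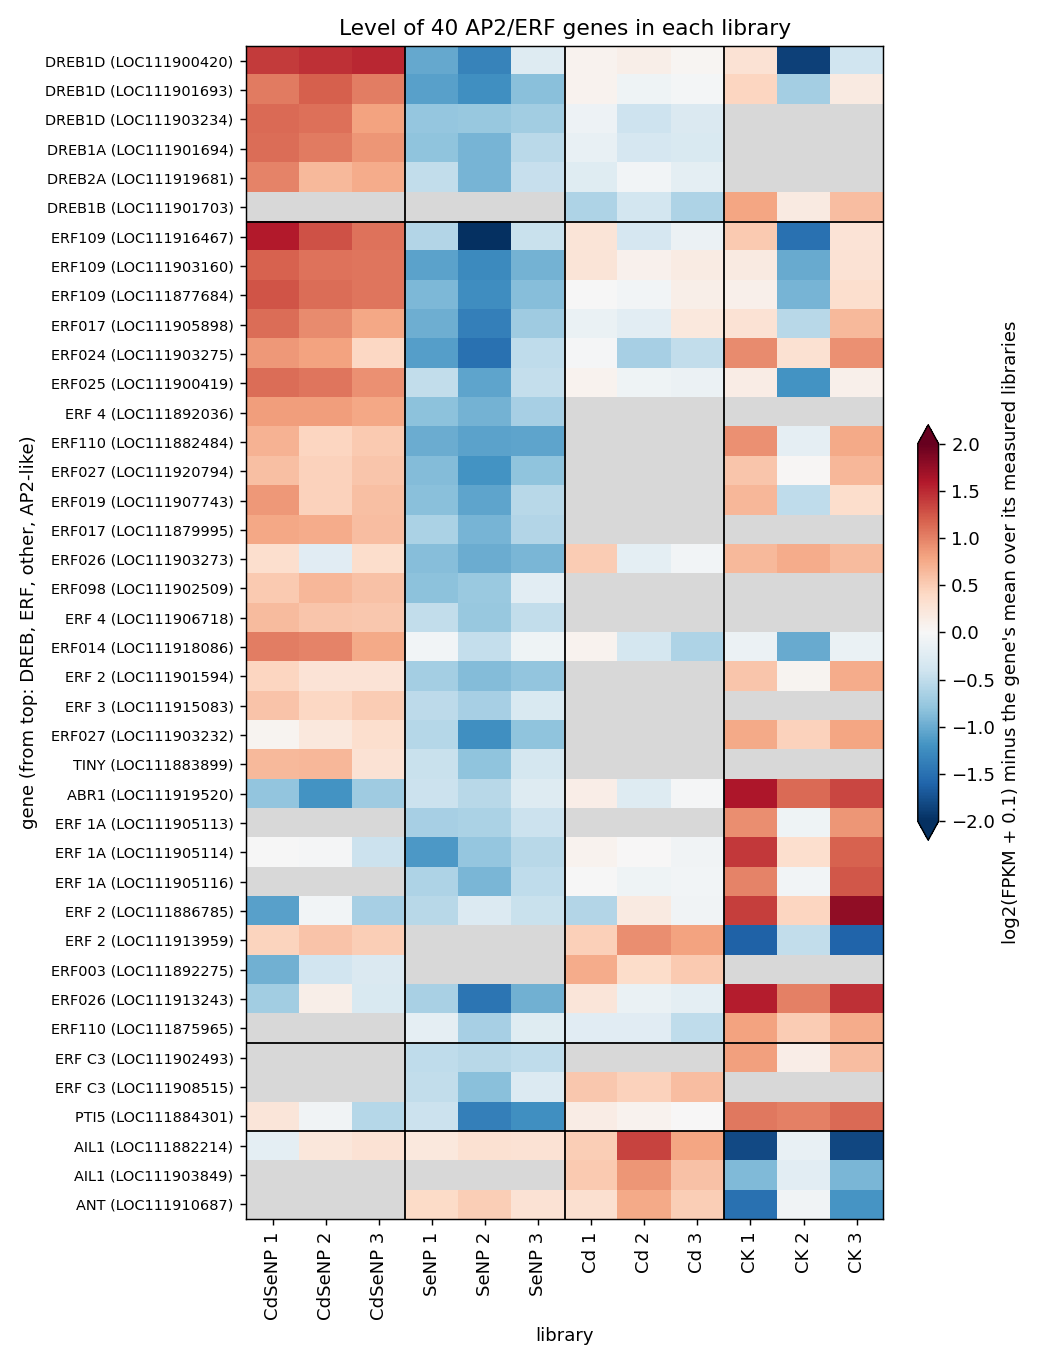
Level of each of the 40 AP2/ERF genes (rows, from top DREB, ERF, other and AP2-like) in each of the 12 libraries (columns), as log2(FPKM + 0.1) minus the mean of the gene over the libraries that have a value; grey marks a group with no value in any table. Red stands for a level above the mean of the gene and blue for one below. The DREB genes other than DREB1B and most of the ERF genes are red in all 3 CdSeNP libraries and blue in all 3 SeNP libraries, CK 2 is paler or bluer than CK 1 and CK 3 at most genes, and the AP2-like genes at the bottom are blue in CK 1 and CK 3.

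Counted over the family, the calls leaned to higher levels wherever CdSeNP was compared with another treatment and to lower levels wherever SeNP or Cd was compared with CK. In CdSeNP against SeNP, 24 members rose and 0 fell in the authors' deposited table (DESeq2), so 60% of the members rose where 32.7% of all listed genes did and 6.32% fell. In CdSeNP against Cd, 11 members rose and 1 fell in the authors' deposited table, which is 27.5% of the members higher against 11.1% of all listed genes, and 2.5% lower against 8.04%. In SeNP against Cd, 0 members rose and 4 fell in the authors' deposited table, 10% of the members against 15.3% of all listed genes lower and 6.80% higher, so the share that fell was below that of all listed genes. The members that a table does not list have no p-value here, so a count at an unadjusted p cannot be given for the 2 counts of 0. Refits with DESeq2 and edgeR cover listed genes only, so their 0 in both counts adds no support.

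Against untreated leaves the counts were mixed. In CdSeNP against CK, 8 members rose and 5 fell in the authors' deposited table, which is 20% and 12.5% of the members, against 12.6% and 13.4% of all listed genes. Without CK 2 the 8 became 3 and the 5 stayed 5 by edgeR, and edgeR adjusted over all genes tested gave 0 and 2. All 8 had an unadjusted p under 0.05 by edgeR, and a DESeq2 refit over listed genes only called 8. In SeNP against CK, 2 members rose and 18 fell in the authors' deposited table, so 45% of the members fell where 20.7% of all listed genes did and 12.5% rose. In Cd against CK, 4 members rose and 9 fell in the authors' deposited table, so 22.5% of the members fell where 14.1% of all listed genes did, and 10% of the members rose where 35.3% of all listed genes did. The 3 comparisons share the CK libraries and are not independent of each other. Of all genes tested by the authors, 3.87% were called in CdSeNP against SeNP, 1.87% in CdSeNP against Cd, 2.18% in SeNP against Cd, 2.57% in CdSeNP against CK, 3.31% in SeNP against CK and 4.85% in Cd against CK. The numbers of genes tested were inferred here from adjusted and raw p-values.

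The median authors' log2 fold change of the members called was 1.53 in CdSeNP against SeNP, where the median of all genes called was 1.27, in the authors' deposited table. It was 1.18 in CdSeNP against Cd, where all genes called had 1.04, and -1.09 in SeNP against Cd, where they had -1.15, again in the authors' deposited tables. Against CK, the authors' deposited tables gave medians of 1.12 for CdSeNP (all genes called -1.01), -1.51 for SeNP (-1.09) and -1.18 for Cd (1.19). No called gene lies between -1 and 1, so a median over both directions mainly shows which direction had more calls. In CdSeNP against CK, 48.5% of all genes called were higher and 51.5% lower, so the distance between 1.12 and -1.01 is no measure of a shift. Groups rarely overlapped at called members, and this was true of called genes in general. The 2 groups did not overlap at 24 of 24 members called in CdSeNP against SeNP (99.8% of all genes called), 12 of 12 in CdSeNP against Cd (97.0%), 4 of 4 in SeNP against Cd (99.4%), 12 of 13 in CdSeNP against CK (98.8%), 20 of 20 in SeNP against CK (98.7%) and 12 of 13 in Cd against CK (98.5%). The exceptions were AIL1 (LOC111882214) in CdSeNP against CK and ERF1A (LOC111905116) in Cd against CK.

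**Figure D2:**
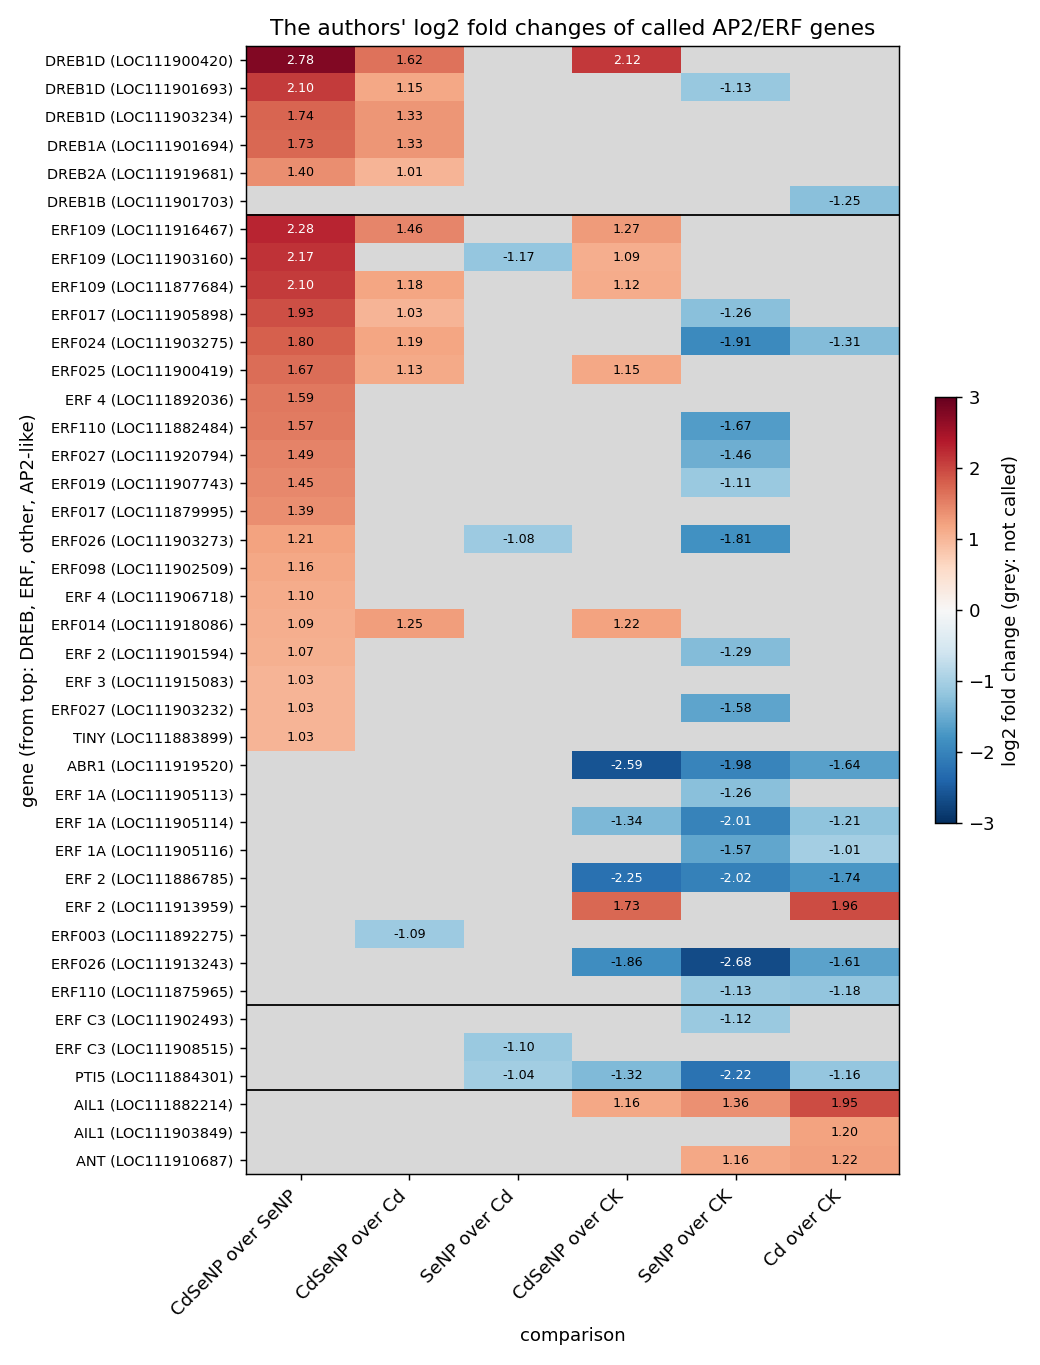
The authors' deposited log2 fold changes of the 40 AP2/ERF genes (rows) in the 6 comparisons (columns, first-named group over the second); the number in each cell is the value, and grey marks a comparison in which the gene was not called. The column of CdSeNP over SeNP holds only positive values (24 genes, 1.03 to 2.78), the column of SeNP over CK is negative except at AIL1 and ANT, and genes with no call in CdSeNP over SeNP stand below the others within each subfamily.

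Among the DREB genes, 5 of 6 rose in both CdSeNP against SeNP and CdSeNP against Cd in the authors' deposited tables. These were 3 genes named DREB1D, DREB1A and DREB2A. Of all listed genes, 32.7% rose in CdSeNP against SeNP and 11.1% in CdSeNP against Cd. DREB1 genes encode the C-repeat binding factors that switch on cold-responsive genes in Arabidopsis, and DREB2A acts in its drought and heat responses. DREB1A (LOC111901694, chr9:71638927-71639979, plus strand) had 111, 106 and 94.3 FPKM in CdSeNP, 29.1, 26.9 and 35.1 FPKM in SeNP and 46.2, 40.2 and 41.4 FPKM in Cd. The 3 groups did not overlap, with CdSeNP highest and SeNP lowest. In the authors' deposited table it was 3.31-fold higher in CdSeNP than in SeNP (log2 1.73 ± 0.14 SE, adjusted p = 2.4e-32) and 2.51-fold higher than in Cd (adjusted p = 1.4e-66). Each SE beside a deposited fold change was computed here from that fold change and its p-value, assuming a Wald test. Its neighbour DREB1D (LOC111901693, chr9:71588467-71589492, minus strand) had 76.1, 84.5 and 75.3 FPKM in CdSeNP, 17.2, 15.8 and 20.6 FPKM in SeNP, 38.8, 34.9 and 35.7 FPKM in Cd and 49.7, 22.97 and 41.8 FPKM in CK. CdSeNP stood above and SeNP below every other library, while Cd lay within the range of the controls whose lowest library, CK 2, came next above SeNP. The authors' deposited table put this DREB1D gene at a log2 fold change of 2.10 ± 0.086 (SE, adjusted p = 1.2e-128) in CdSeNP against SeNP and of -1.13 ± 0.24 (SE, adjusted p = 8.6e-05) in SeNP against CK. Without CK 1 edgeR gave -0.90 in SeNP against CK and no longer called it, and with all libraries and adjustment over all genes tested edgeR gave an adjusted p of 0.16.

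The remaining DREB genes were expressed at lower levels. DREB1D on chromosome 2 (LOC111903234, chr2:228976676-228978103, minus strand) had 22.99, 22.5 and 18.2 FPKM in CdSeNP, 6.03, 6.16 and 6.37 FPKM in SeNP and 9.74, 7.77 and 8.52 FPKM in Cd, with no overlap between groups. DREB2A (LOC111919681, chr8:16848688-16850634, plus strand) had 16.9, 13.3 and 14.2 FPKM in CdSeNP, 5.96, 4.37 and 6.11 FPKM in SeNP and 7.09, 8.16 and 7.38 FPKM in Cd. Its groups did not overlap either, but its rise over Cd lay near the fold limit: edgeR gave a log2 of 0.97 without Cd 1, 0.99 without Cd 3 and 0.90 without CdSeNP 1, and 0.97 with scaling by library totals. The DREB1D gene on chromosome 6 (LOC111900420, chr6:11315575-11316695, plus strand) had the highest fold change of the family and few reads, with 33, 33 and 41 counts in CdSeNP, 4, 3 and 8 counts in SeNP, 14, 15 and 13 counts in Cd and 15, 1 and 8 counts in CK. All CdSeNP libraries were above all others at this gene, and CK overlapped both SeNP and Cd. The authors' deposited table gave log2 fold changes of 2.78 ± 0.5 (SE, adjusted p = 3.2e-07) in CdSeNP against SeNP, 1.62 ± 0.37 against Cd and 2.12 ± 0.57 against CK. The sixth gene, DREB1B (LOC111901703), went the other way, with 1.52, 1.82 and 1.52 FPKM in Cd against 4.19, 2.70 and 3.71 FPKM in CK. All Cd libraries lay below all controls, and the authors' deposited table called it 2.37-fold lower (adjusted p = 8.7e-05).

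ERF109, which responds to wounding, jasmonate and redox stress in Arabidopsis, was the name of 3 members. All 3 rose in CdSeNP against SeNP, where 32.7% of all listed genes rose. ERF109 on chromosome 9 (LOC111903160, chr9:200816004-200817062, minus strand) had 118, 112 and 110.1 FPKM in CdSeNP, 24.7, 21.5 and 27.1 FPKM in SeNP, 62.5, 55.5 and 58.4 FPKM in Cd and 59.1, 26.0 and 63.7 FPKM in CK. CdSeNP was nearly level across its libraries and above all others, Cd lay near CK 1 and CK 3, and CK 2 lay within the range of SeNP. Its authors' deposited log2 fold change of 2.17 ± 0.075 (SE) in CdSeNP against SeNP had an adjusted p of 9.1e-180. It was also 2.24-fold lower in SeNP than in Cd in the authors' deposited table (adjusted p = 5e-41). ERF109 on chromosome 5 (LOC111877684, chr5:263559008-263559993, plus strand) had 112, 102 and 97.8 FPKM in CdSeNP, 24.9, 19.8 and 25.9 FPKM in SeNP, 46.5, 44.8 and 50.6 FPKM in Cd and 50.1, 24.4 and 59.1 FPKM in CK, the same order of groups as its chromosome 9 namesake. The short gene on chromosome 4 (LOC111916467, chr4:366613161-366613616, plus strand) had 6.87, 5.53 and 4.83 FPKM in CdSeNP, 1.45, 0.459 and 1.60 FPKM in SeNP, 2.67, 1.75 and 2.05 FPKM in Cd and 3.23, 0.728 and 2.71 FPKM in CK. CdSeNP was again above all other libraries and CK 2 lay within the range of SeNP. The authors' deposited table gave log2 fold changes of 2.28 ± 0.35 against SeNP and 1.46 ± 0.28 against Cd (SE).

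The ERF109 genes were also called higher in CdSeNP against CK, at authors' deposited log2 fold changes of 1.09, 1.12 and 1.27 on chromosomes 9, 5 and 4 (adjusted p = 0.047, 0.033 and 0.03). These calls rested on CK 2, the lowest control at all 3 genes: without it, edgeR gave log2 values of 0.79, 0.83 and 0.85, under the fold limit. The chromosome 4 gene also missed the test without CdSeNP 1 (1.12) or CdSeNP 2 (1.32).

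**Figure D3:**
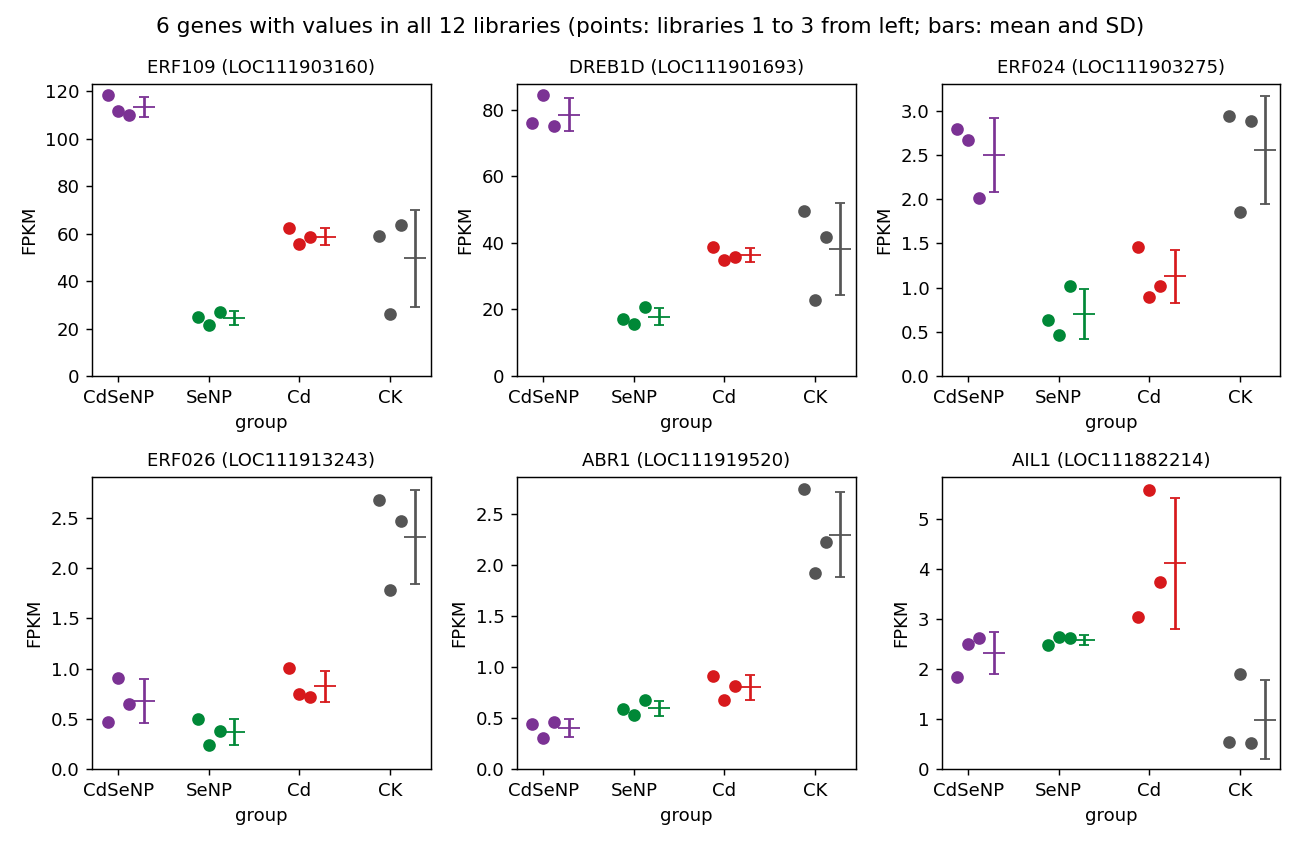
FPKM of 6 AP2/ERF genes with values in all 12 libraries; each point is a library (replicates 1 to 3 from left in each group), the horizontal bar is the mean and the whisker the SD of 3 libraries, and every axis starts at 0. ERF109 and DREB1D are highest in CdSeNP and lowest in SeNP, ERF024 is high in CdSeNP and CK and low in SeNP and Cd, ERF026 and ABR1 are below all controls in each treatment, and AIL1 is lowest in CK 1 and CK 3.

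The ERF014 to ERF027 genes and TINY, which group with the DREB proteins by sequence in Arabidopsis, gave 11 members. Of these, 10 rose in CdSeNP against SeNP in the authors' deposited table, and ERF026 on chromosome 5 did not pass there. In that comparison 60% of all members and 32.7% of all listed genes rose. The set was not planned as a subfamily, so its count is a description. ERF024 (LOC111903275, chr2:229086475-229087150, minus strand) was called in 4 comparisons, with 2.79, 2.67 and 2.02 FPKM in CdSeNP, 0.634, 0.465 and 1.02 FPKM in SeNP, 1.46, 0.896 and 1.02 FPKM in Cd and 2.94, 1.85 and 2.89 FPKM in CK. SeNP and Cd overlapped and lay below both CdSeNP and CK, which overlapped each other. In the authors' deposited tables ERF024 was 3.48-fold higher in CdSeNP than in SeNP (adjusted p = 2.4e-05), 2.28-fold higher than in Cd (0.0021), and lower than in CK by 3.77-fold in SeNP (0.00031) and 2.47-fold in Cd (0.0036). ERF017 on chromosome 7 (LOC111905898) had 27.5, 24.3 and 21.5 FPKM in CdSeNP, 6.34, 4.80 and 7.62 FPKM in SeNP, 11.5, 10.9 and 14.6 FPKM in Cd and 15.3, 8.51 and 19.8 FPKM in CK. CdSeNP lay above all other libraries and SeNP below them all. Its calls in CdSeNP against Cd and in SeNP against CK lay near the fold limit, since edgeR gave 0.99 without Cd 1, 0.96 without Cd 2, 0.93 without CdSeNP 1 and 0.99 with library totals in the first, and -0.96 without CK 3 in the second.

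ERF025 (LOC111900419) and ERF014 (LOC111918086) were higher in CdSeNP than in each of the other 3 groups. ERF025 had 18.1, 17.6 and 15.8 FPKM in CdSeNP, 5.85, 3.96 and 5.97 FPKM in SeNP, 8.72, 7.83 and 7.66 FPKM in Cd and 9.25, 3.56 and 8.88 FPKM in CK. ERF014 had 16.6, 16.2 and 13.7 FPKM in CdSeNP, 7.79, 5.76 and 7.66 FPKM in SeNP, 8.52, 6.33 and 5.24 FPKM in Cd and 7.43, 3.97 and 7.37 FPKM in CK. The other groups overlapped one another at ERF014, and CK 2 was the lowest library of all at both genes. Their authors' deposited log2 fold changes in CdSeNP against CK were 1.15 ± 0.29 (SE, adjusted p = 0.0011) for ERF025 and 1.22 ± 0.23 (SE, adjusted p = 7.2e-06) for ERF014, and without CK 2 edgeR gave 0.82 and 0.97, under the fold limit. ERF014 in CdSeNP against SeNP also slipped to 0.98 without SeNP 2.

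ERF026 on chromosome 2 (LOC111903273) was the 1 gene of this set with CK values at which CK 2 was not the lowest control, with 1.31, 0.851 and 1.32 FPKM in CdSeNP, 0.515, 0.461 and 0.491 FPKM in SeNP, 1.48, 0.870 and 0.973 FPKM in Cd and 1.65, 1.75 and 1.62 FPKM in CK. SeNP lay below and CK above every other library. The authors' deposited table gave a log2 fold change of -1.81 ± 0.36 (SE, adjusted p = 2.2e-05) in SeNP against CK, and of -1.08 in SeNP against Cd, which edgeR put at -0.81 without Cd 1. The remaining members of the set were not reached by the rule for named genes and were chosen after their values were seen. ERF027 on chromosome 3 (LOC111920794), ERF027 on chromosome 2 (LOC111903232) and ERF019 (LOC111907743) rose in CdSeNP against SeNP and fell in SeNP against CK. ERF027 on chromosome 3, for example, had 7.28, 6.60 and 7.06 FPKM in CdSeNP and 7.02, 4.86 and 7.60 FPKM in CK, overlapping groups, against 2.55, 2.03 and 2.69 FPKM in SeNP. ERF017 on chromosome 5 (LOC111879995) and TINY (LOC111883899) were called in CdSeNP against SeNP alone and averaged 46.5 ± 2.84 and 45.3 ± 6.39 FPKM in CdSeNP, against 17.3 ± 2.17 and 21.6 ± 3.40 FPKM in SeNP (SD, n = 3 each). TINY fell under the fold limit by edgeR without SeNP 2 (0.92), CdSeNP 1 (0.96) or CdSeNP 2 (0.97), ERF027 on chromosome 2 without SeNP 2 (0.88) or CdSeNP 3 (0.95), and ERF019 in SeNP against CK without CK 1 (-0.84).

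The genes named after ERF4 and ERF3, which act as transcriptional repressors in Arabidopsis, were called in CdSeNP against SeNP and in no other comparison. ERF4 on chromosome 8 (LOC111906718) was the most highly expressed member, at 139.5, 132 and 131 FPKM in CdSeNP against 64.3, 53.4 and 63.9 FPKM in SeNP. ERF4 on chromosome 1 (LOC111892036) had 68.3, 68.0 and 65.5 FPKM in CdSeNP against 21.6, 19.7 and 23.9 FPKM in SeNP. The groups did not overlap at either gene, and the authors' deposited table called them 2.15-fold and 3.01-fold higher (adjusted p = 7.4e-53 and 3.6e-86). ERF3 (LOC111915083) was low, at 1.79 ± 0.106 FPKM in CdSeNP and 0.855 ± 0.118 FPKM in SeNP (SD, n = 3 each), and edgeR put its log2 fold change at 0.95 without SeNP 2 and 0.97 without CdSeNP 1. ERF098 (LOC111902509), which promotes ascorbate synthesis in Arabidopsis, rose to 4.29 ± 0.218 FPKM in CdSeNP, against 1.88 ± 0.477 FPKM in SeNP (SD, n = 3 each). ERF3, ERF4 and ERF098, like ERF2 on chromosome 9 below, were chosen after their values were seen.

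A pair of ERF genes were low in SeNP while their CdSeNP level lay within the range of untreated leaves. ERF110 on chromosome 4 (LOC111882484) had 16.9, 14.1 and 15.0 FPKM in CdSeNP, 5.16, 4.91 and 4.97 FPKM in SeNP and 19.7, 9.16 and 17.8 FPKM in CK. The CdSeNP values lay within the range of the controls and the SeNP values below all others, a log2 fold change of -1.67 ± 0.27 in SeNP against CK in the authors' deposited table (SE, adjusted p = 3.9e-08). ERF2 on chromosome 9 (LOC111901594), a GCC-box activator by its Arabidopsis namesake, had 51.9, 46.6 and 46.6 FPKM in CdSeNP, 23.8, 21.1 and 22.2 FPKM in SeNP and 56.2, 40.05 and 64.0 FPKM in CK. Its groups were arranged as those of ERF110, and without CdSeNP 1 its edgeR log2 fold change in CdSeNP against SeNP lay at 1.00, on the limit.

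Another set of members was low in every treatment and was low in CdSeNP as well. The 5 members that fell in CdSeNP against CK were ABR1, ERF2 on chromosome 4, ERF026 on chromosome 5, ERF1A and PTI5, and the authors' deposited tables called all 5 lower in SeNP and in Cd as well. ABR1 (LOC111919520, chr9:47349435-47351161, plus strand), a repressor of abscisic acid responses in Arabidopsis, had 0.439, 0.306 and 0.467 FPKM in CdSeNP, 0.591, 0.529 and 0.677 FPKM in SeNP, 0.917, 0.677 and 0.818 FPKM in Cd and 2.74, 1.93 and 2.23 FPKM in CK. Its 4 groups did not overlap, in the order CK, Cd, SeNP and CdSeNP from high to low, although the lowest Cd and the highest SeNP library were equal to 3 digits. The authors' deposited log2 fold changes against CK were -2.59 ± 0.32 in CdSeNP, -1.98 ± 0.29 in SeNP and -1.64 ± 0.26 in Cd (SE, adjusted p = 6.5e-14, 2.1e-09 and 3.2e-08).

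ERF026 on chromosome 5 (LOC111913243, chr5:254145277-254146292, plus strand) had 0.475, 0.910 and 0.654 FPKM in CdSeNP, 0.499, 0.240 and 0.380 FPKM in SeNP, 1.00, 0.753 and 0.714 FPKM in Cd and 2.68, 1.78 and 2.47 FPKM in CK. All treated libraries lay below all controls and CdSeNP overlapped both SeNP and Cd. The lowest values were in SeNP, where the authors' deposited table gave -2.68 ± 0.42 (log2, SE, adjusted p = 2e-08). PTI5, named after a tomato activator of pathogenesis-related genes, had 1.51, 1.196 and 0.817 FPKM in CdSeNP, 0.911, 0.426 and 0.480 FPKM in SeNP, 1.40, 1.33 and 1.26 FPKM in Cd and 2.73, 2.62 and 2.90 FPKM in CK. Its controls were close together, CK 2 included, and all treated libraries lay below them. The authors' deposited log2 fold change of PTI5 was -2.22 ± 0.36 in SeNP against CK (SE, adjusted p = 6.4e-08), while its call in SeNP against Cd (-1.04) ended by edgeR without SeNP 2 (-0.85) or SeNP 3 (-0.90). ERF2 on chromosome 4 (LOC111886785) averaged 0.310 ± 0.149 FPKM in CdSeNP, 0.346 ± 0.0433 FPKM in SeNP, 0.445 ± 0.140 FPKM in Cd and 1.36 ± 0.622 FPKM in CK (SD, n = 3 each), with at most 16 counts in any treated library.

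The ERF1A genes, whose Arabidopsis namesake activates GCC-box genes, lie near each other on chromosome 6. LOC111905113 and LOC111905114 have 0 RefSeq genes between them, and LOC111905116 lies 167 kb further on, past 3 RefSeq genes. ERF1A LOC111905114 had 1.59, 1.57 and 1.16 FPKM in CdSeNP, 0.666, 0.895 and 1.05 FPKM in SeNP, 1.69, 1.60 and 1.51 FPKM in Cd and 4.44, 2.05 and 3.73 FPKM in CK. CK lay above all treatments and SeNP below all other groups, and the authors' deposited log2 fold change was -2.01 ± 0.38 in SeNP against CK (SE, adjusted p = 5.7e-06). Its call in Cd against CK ended without CK 1, where edgeR gave -0.97. The 2 other copies were chosen after their values were seen. ERF1A LOC111905113 had 8.97, 9.22 and 10.6 FPKM in SeNP against 27.5, 13.4 and 26.4 FPKM in CK, and ERF1A LOC111905116 had 3.37, 2.73 and 3.62 FPKM in SeNP, 5.21, 4.92 and 5.04 FPKM in Cd and 10.51, 5.04 and 12.4 FPKM in CK. SeNP lay below all controls at both copies. For LOC111905116 in Cd against CK, the authors' deposited log2 fold change of -1.01 was no longer called by edgeR without CK 1 (-0.92), CK 3 (-0.74), Cd 1 (-1.04), Cd 2 (-1.0) or Cd 3 (-1.0), with library totals (-0.88) or with a block for replicate number (-0.92). Reads that fit more than 1 copy could have been counted for any of them, since the counting is not given in the sources used here. How alike the copies are in sequence was not examined.

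Of the other members lower against CK, ERF110 on chromosome 1 (LOC111875965) fell in SeNP and Cd alike, with 1.49, 1.04 and 1.42 FPKM in SeNP, 1.44, 1.44 and 1.17 FPKM in Cd and 3.06, 2.47 and 2.91 FPKM in CK. The treatments overlapped and all controls lay above them. ERF C3 on chromosome 5 (LOC111902493) had 14.6, 14.0 and 14.5 FPKM in SeNP against 36.7, 22.7 and 31.9 FPKM in CK, a log2 fold change of -1.12 ± 0.18 (SE) in the authors' deposited table that edgeR put at -0.96 without CK 1. ERF C3 on chromosome 3 (LOC111908515) was called in SeNP against Cd alone, at 0.544, 0.406 and 0.649 FPKM in SeNP against 1.22, 1.15 and 1.29 FPKM in Cd, and without SeNP 2 edgeR gave -0.96. ERF003 (LOC111892275) was the 1 member lower in CdSeNP than in Cd, at 0.682, 1.07 and 1.14 FPKM in CdSeNP against 2.43, 1.85 and 2.09 FPKM in Cd. Its groups did not overlap (authors' deposited table, log2 -1.09 ± 0.32 SE, adjusted p = 0.0046), and its call ended without Cd 1 (-0.98) or CdSeNP 1 (-0.90) by edgeR.

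Where called, the AP2-like genes were higher against CK, opposite to most other members called in SeNP and Cd against CK. In CdSeNP against CK, more members rose (8) than fell (5). All 3 rose in Cd against CK, 2 in SeNP against CK and 1 in CdSeNP against CK in the authors' deposited tables. A rise was also common among all listed genes in Cd against CK (35.3%), and less so in SeNP (12.5%) and CdSeNP (12.6%) against CK. AINTEGUMENTA (ANT) and AINTEGUMENTA-like genes promote organ growth by keeping cells dividing in Arabidopsis. AIL1 on chromosome 1 (LOC111882214, chr1:46249327-46252915, plus strand) had 1.85, 2.51 and 2.62 FPKM in CdSeNP, 2.48, 2.65 and 2.62 FPKM in SeNP, 3.04, 5.57 and 3.75 FPKM in Cd and 0.540, 1.91 and 0.533 FPKM in CK. CK 1 and CK 3 were the lowest libraries, and CK 2 lay above the lowest CdSeNP library. The authors' deposited log2 fold changes were 1.16 ± 0.41 in CdSeNP, 1.36 ± 0.4 in SeNP and 1.95 ± 0.64 in Cd (SE, adjusted p = 0.04, 0.0083 and 0.014). Without CK 2, edgeR gave larger values of 2.01, 2.21 and 2.80. In CdSeNP against CK the edgeR call of AIL1 ended without CK 1 (0.87), CK 3 (0.87), CdSeNP 1 (1.29), CdSeNP 2 (1.11) or CdSeNP 3 (1.06). AIL1 on chromosome 9 (LOC111903849, chr9:125647533-125650152, minus strand) had 15.0, 19.4 and 15.8 FPKM in Cd against 5.61, 9.00 and 5.51 FPKM in CK. ANT (LOC111910687, chr4:346898415-346901389, minus strand) had 12.6, 13.6 and 11.8 FPKM in SeNP, 12.1, 16.4 and 13.6 FPKM in Cd and 3.35, 9.21 and 4.17 FPKM in CK. All treated libraries were above all controls at both genes, with CK 2 the highest control. The calls of ANT ended by edgeR without CK 1 (0.91 in SeNP and 0.96 in Cd) and, in Cd, without CK 3 (1.06).

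Genes of dividing cells were also called higher against CK, mostly in Cd and SeNP. Of 96 listed genes of this kind (histones, MCM helicase subunits, A- and B-type cyclins, kinesins and PCNA), 93 rose in Cd against CK, 62 in SeNP against CK and 17 in CdSeNP against CK in the authors' deposited tables, and 0 fell in these. Of all listed genes, 35.3% rose in Cd against CK, 12.5% in SeNP against CK and 12.6% in CdSeNP against CK. Between treatments, 1 gene of dividing cells fell in CdSeNP against Cd, 2 fell in SeNP against Cd and 0 were called in CdSeNP against SeNP. The summed level of the 93 was 3758, 5123 and 3796 FPKM in Cd, against 924, 2393 and 857 FPKM in CK, and 0 of the genes were at 0 in either group. The sum of the 62 was 2708, 2892 and 2750 FPKM in SeNP, against 756, 1819 and 684 FPKM in CK. CK 2 was the highest control at 96 of the 96 genes and at the 3 AP2-like genes. It was also the highest control at 793 of all 1686 listed genes with CK values. The part of cell division in the AP2-like values was not tested.

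ERF2 on chromosome 7 (LOC111913959) was the 1 ERF gene that rose in Cd, with 1.87, 2.02 and 1.91 FPKM in CdSeNP, 1.91, 2.64 and 2.41 FPKM in Cd and 0.366, 0.918 and 0.373 FPKM in CK. Cd and CdSeNP overlapped and both lay above all controls, of which CK 2 was the highest. In the authors' deposited tables it was 3.31-fold higher in CdSeNP (adjusted p = 0.0052) and 3.88-fold higher in Cd (adjusted p = 0.00043), on 6 to 15 counts per control library.

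Whether cadmium acted differently in the presence of nanoparticles was tested as an interaction, the log2 difference of CdSeNP over SeNP minus that of Cd over CK. The test was edgeR's quasi-likelihood test on the counts of the 575 genes with values in all 12 libraries, with Benjamini-Hochberg adjustment over them. Genes have such values only through calls between these same groups, so the test reuses the values that chose them. Its adjusted p-values do not cover genes outside the 575 and are descriptive. Of the 16 members in the test, 14 had a positive interaction and 1 a negative one, which is 87.5% and 6.25% of the members. Among the 575 genes, chosen in the same way, 45.2% had a positive and 28.5% a negative interaction. The median interaction was 2.06 over the 16 members and 0.51 over the 575 genes. ERF024 had the largest value, an interaction of 3.09 (edgeR, adjusted p = 7.4e-05): its level was 1.82 higher on the log2 scale in CdSeNP than in SeNP and 1.18 lower in Cd than in CK, as ratios of mean FPKM. It ranged from 2.88 to 3.41 when single libraries were left out. DREB1D on chromosome 9 had 2.29 (edgeR, adjusted p = 7.5e-05, range 2.05 to 2.56), with log2 ratios of mean FPKM of 2.14 in CdSeNP over SeNP and -0.07 in Cd over CK. The ERF109 genes had 2.05, 2.14 and 2.44 on chromosomes 9, 5 and 4 (edgeR, adjusted p = 0.00029, 0.0002 and 0.0044).

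These members reached a positive interaction in different ways. A gene equally far below CK in every treatment has a positive value by the arithmetic alone. At the ERF109 genes, DREB1D on chromosome 9, ERF017, ERF025 and ERF014, Cd differed from CK by at most 0.25 on the log2 scale of mean FPKM, and CdSeNP was above SeNP by 1.14 to 2.30. At ERF026 on chromosome 5, PTI5 and ERF1A, Cd was below CK by 1.05 to 1.49 and CdSeNP above SeNP by 0.72 to 0.96. ABR1 was lower in both, by 0.57 in CdSeNP against SeNP and by 1.52 in Cd against CK, and its interaction was 1.04 (edgeR, adjusted p = 0.013). AIL1 on chromosome 1 gave the negative interaction of -2.14 (edgeR, adjusted p = 0.0038), with log2 ratios of mean FPKM of -0.15 in CdSeNP over SeNP and 2.05 in Cd over CK. ERF2 on chromosome 4 missed the test at 1.50 (edgeR, adjusted p = 0.062), but passed without CK 2 (1.82) or CdSeNP 1 (1.75). DREB1D on chromosome 6, at 2.24 (edgeR, adjusted p = 0.018), missed it without CK 1 (1.43) or SeNP 2 (1.93). Without CK 2, 15 members were positive and 1 negative.

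**Figure D4:**
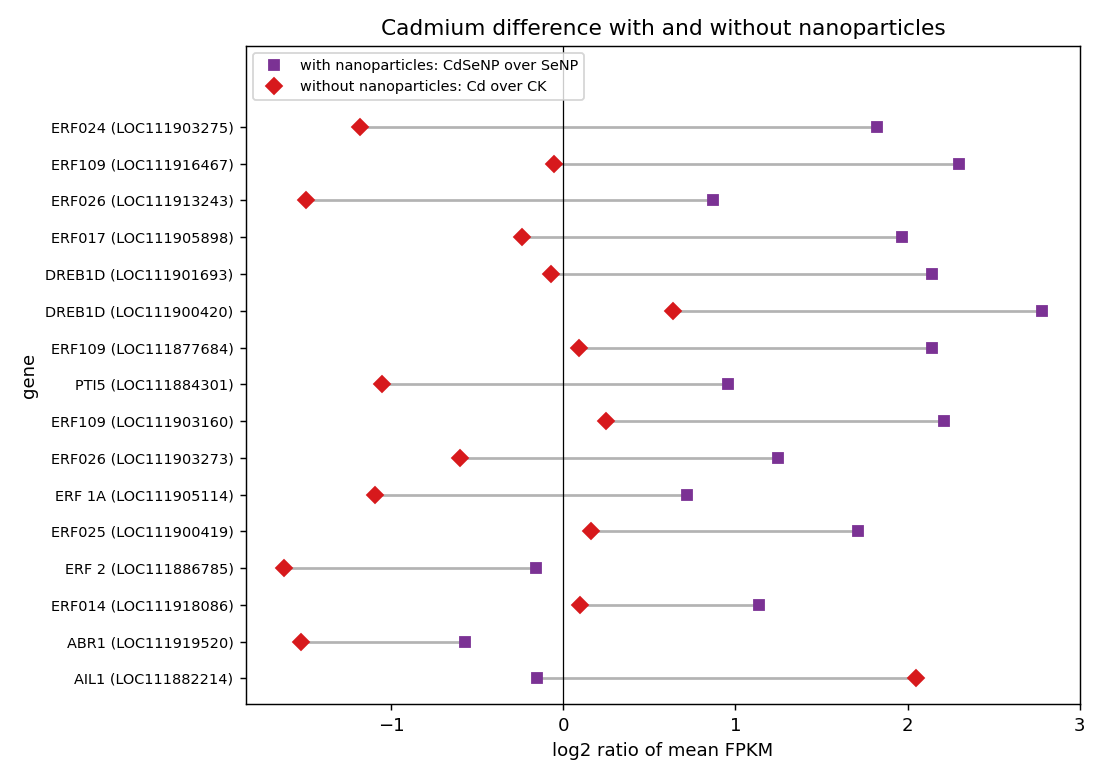
Log2 ratio of mean FPKM (horizontal axis) for the 16 AP2/ERF genes with values in all 12 libraries, with squares for CdSeNP over SeNP and diamonds for Cd over CK; the grey line between them is close in length to the interaction. The square lies to the right of the diamond at 15 genes and to the left at AIL1 (LOC111882214), and the line is longest at ERF024.

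Ordered by mean FPKM, the 16 members were highest in CdSeNP at 8 genes, in CK at 7 and in Cd at 1. Among the 575 genes, 27.7% were highest in CdSeNP, 24.3% in CK, 37.4% in Cd and 10.6% in SeNP. The lowest group was SeNP at 12 members, CK at 2 and CdSeNP at 2, and SeNP was the lowest at 46.8% of the 575 genes. At 8 of the 8 members highest in CdSeNP all CdSeNP libraries were above all others, as they were at 74.8% of the 159 genes highest in CdSeNP. Cd and CK overlapped at 8 of these 8 members and at 74.2% of the 159 genes. At 6 of the 7 members highest in CK all controls were above all treated libraries, against 59.3% of the 140 genes highest in CK, and the exception was ERF024, where CK overlapped CdSeNP. AIL1 was highest in Cd, with no overlap with the other groups.

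CK 2 was the lowest control at 24 of the 29 members with CK values, and at 24 of 26 when the AP2-like genes were left aside. Of the 1657 other listed genes with CK values, 41.9% were lowest in CK 2. The median ratio of CK 2 to the mean of CK 1 and CK 3 was 0.637 over the 29 members, with a range of 0.0866 to 3.55, and 1.04 over the other genes. At the members the median ratio of the highest to the lowest replicate was 1.22 in CdSeNP, 1.32 in SeNP, 1.25 in Cd and 2.15 in CK. Of the 8 members higher in CdSeNP against CK, 3 stayed past the fold limit without CK 2, namely AIL1, DREB1D on chromosome 6 and ERF2 on chromosome 7.

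The calls against CK depended on the test and fit. The deposited adjusted p-values already cover all genes the authors tested, and edgeR's quasi-likelihood test adjusted over the same number of genes kept 2 of 9 members lower in Cd, 5 of 18 lower in SeNP and 2 of 5 lower in CdSeNP. It kept 0 of 4, 0 of 2 and 0 of 8 of the members higher in Cd, SeNP and CdSeNP, all of which had an unadjusted p under 0.05 by edgeR. Without CK 2 the same edgeR fit kept 9, 18 and 5 members lower and 4, 2 and 3 higher in Cd, SeNP and CdSeNP. Between treatments it kept 24 of 24 members higher in CdSeNP against SeNP, 10 of 11 higher and 0 of 1 lower in CdSeNP against Cd, and 1 of 4 lower in SeNP against Cd. The 1 lower in CdSeNP against Cd, ERF003, had an unadjusted p under 0.05 by edgeR.

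**Figure D5:**
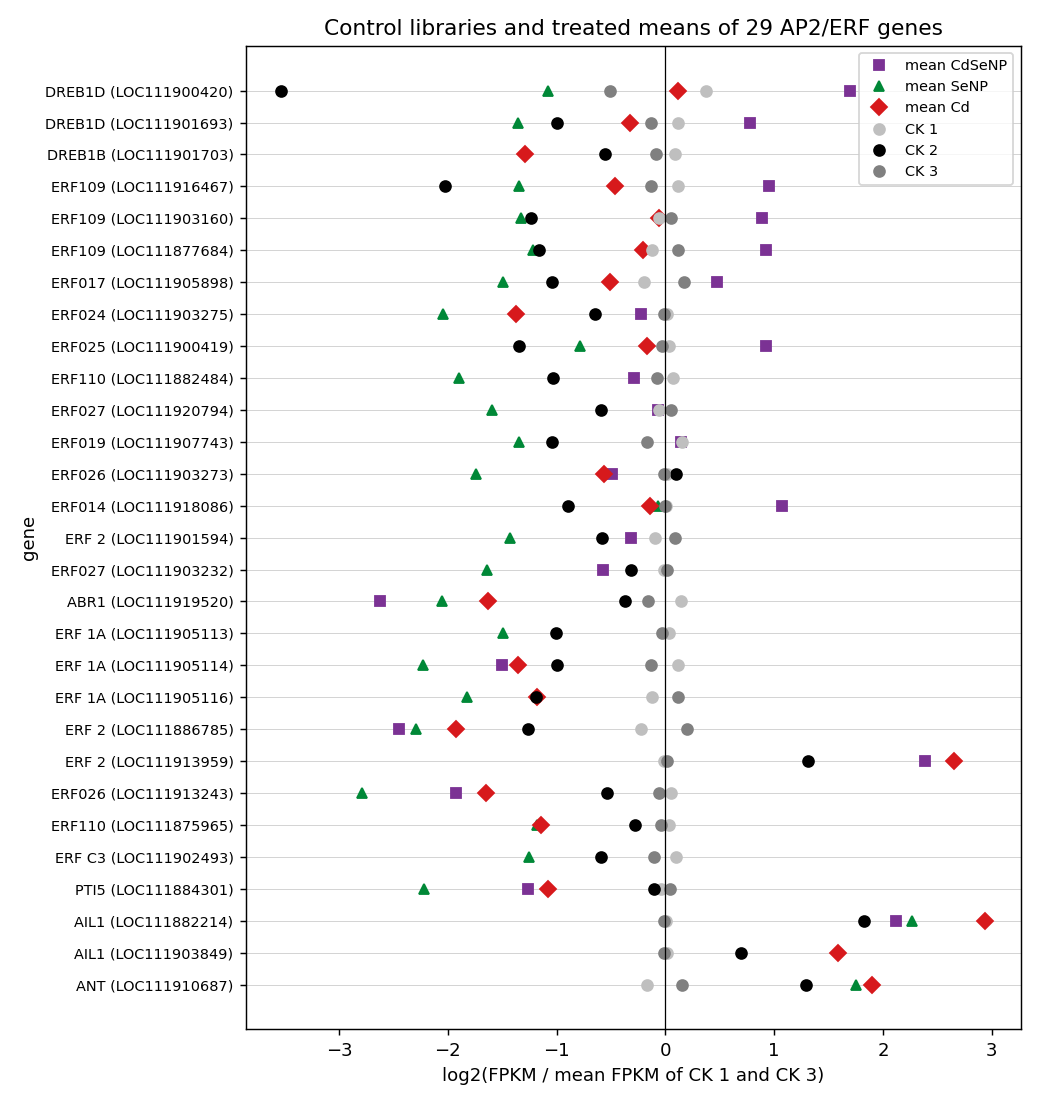
Levels of the 29 AP2/ERF genes with CK values relative to the mean of CK 1 and CK 3, on a log2 scale of FPKM; circles are the 3 control libraries (CK 2 in black) and the coloured symbols are the means of 3 libraries of each treatment that has values. CK 2 lies left of CK 1 and CK 3 at 24 genes, the SeNP means lie left of CK 2 at 18 genes that fell in SeNP, and at the AP2-like genes at the bottom CK 2 lies right of CK 1 and CK 3.

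Within 1 Mb of another member lay 14 of the 40, in 5 runs, and the count expected for as many other genes was not computed. On chromosome 2, DREB1D (LOC111903234), ERF027 (LOC111903232), ERF024 and ERF026 (LOC111903273) lie on the minus strand between 228976676 and 229226297, and all 4 rose in CdSeNP against SeNP. On chromosome 6, ERF025 and DREB1D (LOC111900420) are 47.4 kb apart with 0 RefSeq genes between them, and both were called higher in CdSeNP than in each of the 3 other groups. The 3 ERF1A copies lie between 166440587 and 166644475 on the same chromosome and fell together in SeNP against CK. The run on chromosome 9 is split: DREB1D (LOC111901693) and DREB1A, 49.4 kb apart, rose in CdSeNP against SeNP, and DREB1B, 979 kb further on, was called in Cd against CK alone. On chromosome 5, ERF C3 (LOC111902493) and ERF098 lie 346 kb apart and were called in different comparisons. Coordinates are those of the deposited files, and all 40 start and end positions equal those of the RefSeq annotation Lsat_Salinas_v11. The gene span equalled the transcript model length, within 1%, at 32 of the 40 members (80%) and at 576 of the 2264 listed genes (25.4%). Both lengths are equal where a gene model has no intron.

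Genes around the family gave the following. Of 34 listed rapid response genes, such as WRKY40, ZAT10, ZAT12, TIFY 10A and PUB23, 33 rose in CdSeNP against SeNP, 20 in CdSeNP against Cd and 9 in CdSeNP against CK, while 6 fell in SeNP against Cd, 10 in SeNP against CK and 1 in Cd against CK, in the authors' deposited tables. Of all listed genes, 32.7% rose in CdSeNP against SeNP, 11.1% in CdSeNP against Cd and 12.6% in CdSeNP against CK. Lower calls took 15.3% in SeNP against Cd, 20.7% in SeNP against CK and 14.1% in Cd against CK. The words of this list were chosen with earlier results of these data known, so its counts are a description. The summed level of the 33 was 2089 to 2381 FPKM in CdSeNP and 692 to 854 FPKM in SeNP. CK 2 was the lowest control at 18 of the 18 with CK values, and at 42.6% of all listed genes with CK values. Of the 29 mesophyll genes, 24 fell in CdSeNP against SeNP, where their sum was 10417 to 10813 FPKM in CdSeNP and 25918 to 26595 FPKM in SeNP, with 0 genes at 0. Higher calls in SeNP against Cd numbered 26 in the authors' deposited tables, lower calls numbered 25 in Cd against CK and 24 in CdSeNP against CK, and 0 were called in SeNP against CK or CdSeNP against Cd. Of all listed genes, 6.32% fell in CdSeNP against SeNP, 14.1% in Cd against CK and 13.4% in CdSeNP against CK. In SeNP against Cd, 6.80% of all listed genes rose. The part of the rapid response and mesophyll shifts in the values of the family was not tested.

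Among 8 genes of programmes that DREB proteins switch on in Arabidopsis (dehydrins, late embryogenesis abundant and related genes), 5 rose in CdSeNP against SeNP, 4 in CdSeNP against Cd and 1 in CdSeNP against CK in the authors' deposited tables. Dehydrin Rab18 (LOC111913327), a water-stress protein, had 66.0, 48.3 and 64.0 FPKM in CdSeNP, 6.30, 5.93 and 4.05 FPKM in SeNP, 0.930, 1.203 and 1.16 FPKM in Cd and 0.595, 1.342 and 1.06 FPKM in CK, and was the gene of this list that rose in all 3. Its Cd and CK libraries overlapped at low levels, and CdSeNP was above SeNP in every library. Dehydrin Xero 2 (LOC111889181) fell in SeNP and Cd against CK, to 5.48 ± 0.715 FPKM in SeNP and 8.21 ± 0.574 FPKM in Cd, against 15.9 ± 2.65 FPKM in CK (SD, n = 3 each). The list had 1 higher and 1 lower in SeNP against CK, 0 higher and 2 lower in Cd against CK, and 2 higher in SeNP against Cd. Among 22 genes of GCC-box defence programmes (chitinases, osmotin, thaumatin, defensin and glucanase genes by name), 9 rose and 1 fell in CdSeNP against SeNP in the authors' deposited tables, and 2 rose and 9 fell in SeNP against CK. In Cd against CK 6 rose and 0 fell, in CdSeNP against CK 1 rose and 3 fell, in CdSeNP against Cd 3 rose and 3 fell, and in SeNP against Cd 0 rose and 8 fell, in the authors' deposited tables. Of all listed genes, 32.7% rose and 6.32% fell in CdSeNP against SeNP, and 11.1% and 8.04% in CdSeNP against Cd. These shares were 12.6% and 13.4% in CdSeNP against CK, and 12.5% and 20.7% in SeNP against CK. They were 35.3% and 14.1% in Cd against CK, and 6.80% and 15.3% in SeNP against Cd.

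Genes of ethylene synthesis and signalling were few in the tables. Of 3 genes of ethylene synthesis, ACC synthase 3 (LOC111900308) had 2.95, 1.92 and 2.00 FPKM in CdSeNP, 3.90, 3.22 and 3.53 FPKM in SeNP, 1.74, 1.63 and 1.71 FPKM in Cd and 6.96, 4.88 and 7.14 FPKM in CK. It was lower in CdSeNP and Cd than in CK and higher in SeNP than in Cd in the authors' deposited tables. An ACC oxidase 3 gene (LOC111904962), which makes ethylene from ACC, averaged 84.3 ± 7.98 FPKM in SeNP and 171 ± 20.9 FPKM in CK, and another (LOC111921123) 0.811 ± 0.195 FPKM in CdSeNP, 2.18 ± 0.275 FPKM in Cd and 1.97 ± 0.292 FPKM in CK (SD, n = 3 each). Of these 3 genes, 0 were called in CdSeNP against SeNP, and so few genes say little about ethylene in that comparison. Ethylene genes called in no comparison have no values here. The part of ethylene in the values of the family was not tested. Of ethylene signalling, 2 genes were listed, and both are negative regulators in Arabidopsis. EBF2 (LOC111893352), which removes the transcription factor EIN3, averaged 1.37 ± 0.0726 FPKM in CdSeNP, 1.54 ± 0.160 FPKM in Cd and 3.62 ± 0.941 FPKM in CK. The CTR1 kinase gene (LOC111906572) averaged 3.31 ± 0.257 FPKM in SeNP, 3.54 ± 0.280 FPKM in Cd and 6.86 ± 1.65 FPKM in CK (SD, n = 3 each), and all 4 calls of these genes, in Cd (2), SeNP (1) and CdSeNP (1) against CK, were lower.

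Markers of other leaf tissues were mixed. Of 20 epidermis genes, 12 rose and 4 fell in Cd against CK, 4 rose and 0 fell in SeNP against CK, 1 rose and 2 fell in CdSeNP against CK, 0 rose and 6 fell in CdSeNP against Cd, 3 rose and 1 fell in CdSeNP against SeNP, and 1 rose and 5 fell in SeNP against Cd in the authors' deposited tables. Of 12 vascular genes, 1 rose and 7 fell in CdSeNP against SeNP, with sums of 9.03 to 11.03 FPKM in CdSeNP and 17.8 to 22.3 FPKM in SeNP over the 8 called. Vascular genes had 2 higher and 1 lower call in Cd against CK, 3 and 1 in SeNP against CK, 0 and 0 in CdSeNP against CK, 0 and 1 in CdSeNP against Cd, and 2 and 0 in SeNP against Cd. The shares of all listed genes in each comparison are those given above beside the GCC-box list.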

How the data were processed

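Read counts and FPKM per gene and library were deposited by the authors in 6 tables, 1 for each pair of groups, together with a log2 fold change, a p-value and its adjusted form, per the file headers. These are taken as DESeq2 results because the processing notes name that tool and no other test. The submitters' processing notes name DESeq2 1.34.0, StringTie 2.2.1, HISAT2 2.2.1, fastp 0.23.0 and Trimmomatic, without roles or order. Genome build, annotation, counter and any use of strand were not given in the sources used here. Only called genes are listed: the largest adjusted p was 0.05 and the smallest absolute log2 fold change was 1. The main results are the authors' deposited calls, and the fold changes are theirs. The tables hold no standard error: each SE was computed here by dividing the deposited log2 fold change by the z value that matches its two-sided p, which assumes a Wald test. Means and SDs of FPKM were computed over 3 libraries.

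The members and the gene lists were chosen with earlier results of these data known. Lists (ethylene synthesis, ethylene signalling, GCC-box and DRE programmes, rapid response genes, mesophyll, dividing cells, epidermis, vascular and root) were matched by words in RefSeq names. Genes were named where they were among the 6 largest increases or decreases of a comparison among members that averaged 2 FPKM or more in the higher group, were called in 3 or more comparisons, passed the interaction test, or belonged to a subfamily of 5 or fewer members, which gave 27 of 40.

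Counts were refitted with edgeR 4.0.16 (quasi-likelihood test) and DESeq2 1.42.0 in R 4.3.3, over listed genes, with library scaling derived from deposited counts and fold changes together (median gap to the authors' log2 values 0.00331). The edgeR calls in the text used the authors' limits. Refits adjust over listed genes only, which is lenient, so an alternative adjusts over the 22656 to 23096 genes the authors tested. Tested on simulated data, the Cd against CK fit recovered 90% of 2-fold and 100% of 4-fold changes over 1119 genes, with 3.55% false calls. The interaction fit recovered 71% and 99% over 575 genes, with 1.73% false calls. The simulation gave every gene the same dispersion and had no library that stood apart as CK 2 did. Its rates therefore do not carry over to the real fits that use CK. Library depth was recovered from counts, FPKM and transcript length. P-values measure the spread between these libraries. No sequence was used, so promoter motifs and protein features were not analysed here. Alternatives were another scaling, DESeq2, a replicate block, a stricter p, a filter on low FPKM and leaving out each library.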

Additional observations from a re-analysis of the deposited data

Results flagged for a closer look

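At 15 AP2/ERF genes the cadmium effect with nanoparticles (CdSeNP against SeNP) differed from the effect without them (Cd against CK), by the interaction term of edgeR's quasi-likelihood test over 575 genes, adjusted by Benjamini-Hochberg. An interaction was common in this set: 45.2% of the 575 genes had a positive and 28.5% a negative one, against 87.5% and 6.25% of the members tested. All 575 genes were chosen through calls between these same groups. The values are log2 differences of the 2 effects. The largest was 3.09 at ERF024 (LOC111903275, adjusted p = 7.4e-05), and it ranged from 2.88 to 3.41 when single libraries were left out. The ERF109 genes had 2.44 (LOC111916467), 2.14 (LOC111877684) and 2.05 (LOC111903160). The DREB1D genes had 2.29 (LOC111901693) and 2.24 (LOC111900420), and the second of these missed the test without CK 1 (1.43) or SeNP 2 (1.93). The ERF026 genes had 2.42 (LOC111913243) and 1.92 (LOC111903273). ERF017 (LOC111905898) had 2.29, PTI5 had 2.06, ERF1A (LOC111905114) had 1.88 and ERF025 had 1.63. The smallest positive values were 1.12 at ERF014 (adjusted p = 0.014) and 1.04 at ABR1 (adjusted p = 0.013). AIL1 (LOC111882214) had the 1 negative value, -2.14 (adjusted p = 0.0038), and CK 2, its highest control, moved it to -3.0 when left out.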

How the results depend on the processing

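The tables hold called genes only, so refits cannot find members the authors did not call, and depth bears most on genes with few reads such as DREB1D on chromosome 6. Refits of the listed genes with edgeR or DESeq2 gave the authors' counts of members in all 6 comparisons. Their scaling was derived from the authors' fold changes and their adjustment covered listed genes only, so this match is no independent check. Scaling by library totals shifted log2 fold changes by 0.123 in Cd against CK and by -0.091 in SeNP against Cd. It gave 9 members higher in CdSeNP against Cd and 8 lower in Cd against CK, with the other counts equal.

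With edgeR adjusted over all genes tested, an alternative chosen after seeing the data, the members higher against CK numbered 0 in CdSeNP, 0 in SeNP and 0 in Cd, of which 8, 2 and 4 had an unadjusted p under 0.05 and DESeq2 refits called 8, 2 and 4. Those lower against CK numbered 2 in CdSeNP, 5 in SeNP and 2 in Cd. It left 0 lower in CdSeNP against Cd (1 by unadjusted p and by DESeq2) and 1 lower in SeNP against Cd. Without CK 2 it gave 3 higher in CdSeNP against CK. At an adjusted p under 0.01 the authors' calls left 4, 1 and 2 members higher against CK in CdSeNP, SeNP and Cd, and 1 lower in SeNP against Cd.

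Leaving out single libraries gave 3 to 7 members higher in CdSeNP against CK (3 without CK 2), 1 to 2 higher in SeNP against CK (1 without CK 1), 0 to 1 lower in CdSeNP against Cd (0 without Cd 1 or CdSeNP 1) and 2 to 4 lower in SeNP against Cd (2 without SeNP 2). Interactions numbered 13 to 15 positive and 1 negative. Of 1114 values for single members under all alternatives, 1060 kept their call, 52 lost it, 2 gained one and 0 changed direction. The causes were not tested.

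With the replicate number as a block, 8 members were lower in Cd against CK and all other counts were equal. Same-number libraries correlated at -0.23 to 0.39, over 0.1 in 9 of 18 pairs, and in 20 of 36 pairings of a library with another group the best match was its own number, where arbitrary numbers give 12. This is a hint from the data, not from the design, with correlations of 0.31 and 0.39 between Cd and CK at numbers 1 and 2. In 0 of the 6 pairs of groups were all correlations over 0.1, and the numbers were not treated as pairing the samples. Promoter motifs and AP2 domain features were not run.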
